A study of Rattus norvegicus with 12 samples.

Results

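Both short hairpin RNAs (shRNAs) compared here, shRNA 1 and shRNA 2, were directed against the same gene, Sbk2, in iAM-1 cells. iAM-1 is a line of atrial heart muscle cells from newborn Wistar rats that divides only while the large T antigen of its conditional LT-tsA58 transgene is made. The transgene features of the deposited tables name a muscle promoter, iMHCK7, for that construct, and an HsRNU6-1 promoter for the hairpin and an HsUBC promoter for eGFP on the shRNA vector. Members of the comparison were all features with a group average of at least 0.5 CPM (reads of a gene scaled to the library total) under either hairpin. These were 12510 of the 32761 features of the table. The libraries compared were 3 of cells transduced with the shRNA 1 vector and 3 of cells transduced with the shRNA 2 vector. The 3 libraries of cells transduced with the control vector, ppluc shRNA, stand beside them for reference, and the other 3 of the 12 libraries, from untransduced cells, entered the filter on low values, the principal components and the shared fit. All these cells were kept in 2% serum, were differentiated without doxycycline and carry the marks D9 and P10 in their titles, and vectors were added early in differentiation.

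A hairpin made from such a vector is cut by the nuclease Dicer into a short duplex, and an Argonaute protein then uses one strand to find and silence messenger RNAs that pair with it. The short stretch of bases known as the seed can also pair with transcripts other than the intended one, and long double-stranded RNA can set off the interferon response, in which sensor proteins lead to the transcription of antiviral genes. Sbk2 belongs to the SH3-binding kinase family and is known for its expression in the heart's atria. A pair of hairpins against one gene is commonly used because effects of the lost target should be common to both, while effects of the hairpin's own sequence need not be. No source used here gives the sequences that shRNA 1 and shRNA 2 target.

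The deposited averages were resolved into single libraries by arithmetic, and levels below are library values in the order of falling library total. The totals were 40622056, 32939830 and 30274847 reads with shRNA 1, 36734685, 32281379 and 30613250 with shRNA 2, and 47517427, 38944015 and 38321704 with ppluc. One read was thus worth between 0.0246 and 0.0330 CPM in a hairpin library. Libraries of one group correlated with each other at 0.9967 to 0.9973 with shRNA 1 and at 0.9945 to 0.9967 with shRNA 2 on the log2 scale. Libraries of one group lay together on both leading principal components, which held 66.8% and 21.1% of the variance. Nothing in the labels ties the libraries of a group to separate cultures, so p-values measured the spread between these samples, which may be technical. Differences are limma estimates of shRNA 1 minus shRNA 2 on the log2(CPM + 0.5) scale, which understates changes of low genes, ± gives their standard error, and p-values were adjusted by Benjamini-Hochberg over all 12493 genes tested. Those genes included 12359 members, while 151 members missed the filter of 0.5 CPM in at least 3 libraries.

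The target was low with both hairpins and lower with shRNA 2. Sbk2 (ENSRNOG00000038625, chromosome 1 from 72425707 to 72433488 in Rnor_6.0) stood at 1.13, 1.00 and 1.09 CPM with shRNA 1, against 0.681, 0.620 and 0.719 CPM with shRNA 2 and 26.9, 24.8 and 29.6 CPM with ppluc. The hairpin libraries did not overlap, but they held only 46, 33 and 33 reads of Sbk2 with shRNA 1 and 25, 20 and 22 with shRNA 2. The difference was 0.43 ± 0.10 (limma adjusted p = 0.00082), and it did not pass with voom weights (0.67, adjusted p = 0.071). Each hairpin's fall against ppluc was far larger than this difference, with -4.13 ± 0.10 for shRNA 1 and -4.55 ± 0.10 for shRNA 2. Sbk3, the adjacent family member, had 3.22, 2.40 and 2.44 CPM with shRNA 1 and 1.17, 0.898 and 1.44 CPM with shRNA 2, a difference of 0.94 ± 0.14 (limma adjusted p = 7.6e-06). Sbk1 reached at most 1 read in a hairpin library and was not tested.

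The vectors themselves were read at somewhat higher levels with shRNA 1. eGFP, which reports transduction, stood at 3461, 3283 and 3299 CPM with shRNA 1, 2619, 2398 and 2452 CPM with shRNA 2 and 2147, 2548 and 2556 CPM with ppluc (0.43 ± 0.10 between the hairpins, limma adjusted p = 0.001). The 3′ end of the shRNA vector showed the same difference, 0.43 ± 0.08 (limma adjusted p = 0.00011). The transcript of LT-tsA58 went the other way, with 8.54, 10.1 and 8.59 CPM under shRNA 1 and 18.8, 19.7 and 19.1 CPM under shRNA 2, or 7.96, 8.35 and 9.05 CPM under ppluc (-1.04 ± 0.10 between the hairpins, limma adjusted p = 1.2e-08). The part of vector dose in the differences that follow was not tested.

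Most of the transcriptome differed between the hairpins. Limma called 81% of the genes tested, with 27.7% higher and 53.3% lower with shRNA 1, in counts 3466 and 6653. By 2-fold or more, 962 genes (7.7%) were higher and 1895 (15.2%) lower. The libraries of both groups lay wholly apart for 27.7% of genes in the higher and 53.4% in the lower direction. The surplus of lower genes went with the scaling. The median gene stood at -0.25 in CPM, and after trimmed-mean scaling, which sets that median near 0, 38.9% were called higher and 38.8% lower (by 2-fold or more, 11.4% and 9.49%). Counts for gene lists are therefore given as deposited and after that scaling. Differences from ppluc are given as deposited only, where the median gene stood at 0.26 with shRNA 1 and 0.50 with shRNA 2. The ratio by which members were defined ran from -5.23 to 5.47 (log2), with 5% to 95% of members between -1.59 and 1.25. Saxo2, with averages of 0.502 CPM for shRNA 1 and 0.336 CPM for shRNA 2, lay just inside the 0.5 CPM limit and Zfp92, with 0.0101 and 0.499 CPM, just outside.

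**Figure D1:**
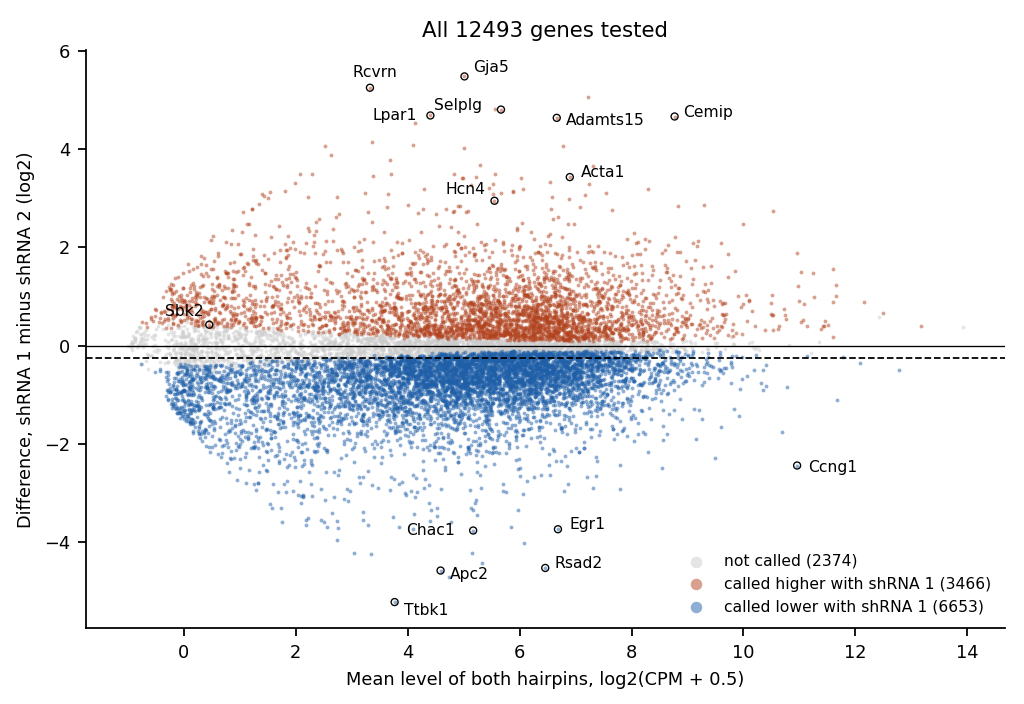
Difference between the hairpins (vertical axis, log2, shRNA 1 minus shRNA 2) against the mean level of both (horizontal axis, log2 of CPM + 0.5) for all 12493 genes tested, each a point. Genes called higher with shRNA 1 (3466) are red, those called lower (6653) blue and the rest grey, and the dashed line marks the median of -0.25. Changes of 16-fold and more occur in both directions, led by Gja5 at 5.49 and Ttbk1 at -5.23.

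Among the largest rises with shRNA 1 relative to shRNA 2 were those of Gja5, Lpar1, Cemip and Adamts15. Gja5 (ENSRNOG00000017484, chromosome 2 from 199162745 to 199184939), the gene of connexin 40, the gap junction protein of atrial and conduction tissue, had 55.8, 65.7 and 66.9 CPM with shRNA 1. With shRNA 2 it had 1.14, 0.620 and 1.01 CPM, and with ppluc 20.8, 17.6 and 20.9 CPM. All shRNA 1 libraries lay above, and all shRNA 2 libraries below, the ppluc ones, and the difference between the hairpins was 5.49 ± 0.12 (limma adjusted p = 5.4e-17).

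Lpar1 (ENSRNOG00000013656, chromosome 5 from 75557042 to 75676584), a receptor for lysophosphatidic acid, showed the same order. It had 41.4, 40.5 and 39.2 CPM with shRNA 1, 1.12, 0.805 and 1.37 CPM with shRNA 2 and 5.20, 5.88 and 5.45 CPM with ppluc (4.69 ± 0.12 between the hairpins, limma adjusted p = 3.4e-16). Cemip (ENSRNOG00000012442, chromosome 1 from 146069771 to 146226462), whose product takes part in the breakdown of hyaluronan, was among the more abundant of these genes. It stood at 814, 889 and 815 CPM with shRNA 1, 29.9, 30.5 and 37.5 CPM with shRNA 2 and 403, 407 and 401 CPM with ppluc (4.67 ± 0.07 between the hairpins, limma adjusted p = 2.3e-19). Adamts15, a protease of matrix proteoglycans, had 192, 196 and 195 CPM with shRNA 1, 7.13, 6.75 and 8.10 CPM with shRNA 2 and 65.0, 70.6 and 67.6 CPM with ppluc, a difference of 4.64 ± 0.06 between the hairpins.

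For Selplg, Padi2 and Sh3kbp1 the difference lay in a lower level with shRNA 2. Selplg, the gene of the selectin ligand PSGL-1, had 95.7, 102 and 95.8 CPM with shRNA 1, 3.43, 2.60 and 3.01 CPM with shRNA 2 and 105, 125 and 113 CPM with ppluc (4.81 ± 0.08 between the hairpins). Against ppluc it was slightly lower with shRNA 1 (-0.22) and much lower with shRNA 2 (-5.03). Padi2, a peptidylarginine deiminase gene, differed by 3.89 ± 0.20 between the hairpins and did not pass the test between shRNA 1 and ppluc (-0.15). Sh3kbp1, an endocytic adaptor gene, stood at 61.3, 59.8 and 58.6 CPM with shRNA 1 and at 4.14, 3.44 and 2.32 CPM with shRNA 2, with ppluc at 301, 281 and 305 CPM, so that both hairpins lowered it (-2.29 and -6.31 against ppluc). Others of the 15 largest rises were Ampd3, an AMP deaminase (4.53 ± 0.11), Dhrs7c, a reductase of the sarcoplasmic reticulum (4.15 ± 0.13), the sodium-proton exchanger gene Slc9a3 (4.08 ± 0.15), Tspan18, a tetraspanin (4.08 ± 0.08), Gsta2, a glutathione transferase (4.06 ± 0.15), Dhrs9 (3.79 ± 0.15) and Rcvrn. Genes were chosen so that the hairpin libraries did not overlap.

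The largest falls with shRNA 1 relative to shRNA 2 included genes that were barely read with shRNA 1 and with ppluc and were high with shRNA 2. Ttbk1 (ENSRNOG00000018416, chromosome 9 from 16862248 to 16902199), a tau-tubulin kinase gene best known from neurons, had 0.148, 0.304 and 0.165 CPM with shRNA 1, 25.8, 30.2 and 22.2 CPM with shRNA 2 and 0.105, 0.180 and 0.183 CPM with ppluc. These were 21 reads in all with shRNA 1 and 2602 with shRNA 2, and the fitted difference was -5.23 ± 0.15 (limma adjusted p = 8.6e-16). Apc2 (ENSRNOG00000033791, chromosome 7 from 12258468 to 12275609), a relative of the Wnt pathway scaffold gene Apc, had 1.03, 1.85 and 1.45 CPM with shRNA 1, 43.8, 50.4 and 42.9 CPM with shRNA 2 and 1.79, 2.13 and 2.51 CPM with ppluc. Its difference was -4.59 ± 0.15 between the hairpins (limma adjusted p = 3.9e-15), and shRNA 1 itself lay 0.45 below ppluc.

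Atcay, the gene of caytaxin, a protein described in neurons, stood at 1.82, 1.09 and 1.49 CPM with shRNA 1 and at 54.0, 53.7 and 44.5 CPM with shRNA 2, with 1.39, 1.39 and 1.72 CPM under ppluc (-4.71 ± 0.14 between the hairpins). Kif5c, a kinesin motor gene, had 3.69, 2.85 and 2.81 CPM with shRNA 1 and 72.1, 71.2 and 58.2 CPM with shRNA 2, and 1.54, 1.85 and 1.70 CPM with ppluc (-4.23 ± 0.14). Itpka, an inositol trisphosphate kinase gene, differed by -4.25 ± 0.18 and Alox5, the gene of arachidonate 5-lipoxygenase, by -4.23 ± 0.16. The list of neuronal genes as a whole did not share this size of change: 3 of its 13 tested members were called higher and 7 lower, with a median of -0.38 (4 and 4 after trimmed-mean scaling), against -0.25 for all genes. Uchl1, a ubiquitin hydrolase gene of neurons, was higher with shRNA 1 (1.42 ± 0.06), and Tubb3, a neuronal tubulin gene, lower (-1.55 ± 0.16) at 0.148, 0.182 and 0.0661 CPM against 1.61, 1.24 and 1.21 CPM with shRNA 2.

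The other 9 of the 15 largest falls fell mostly into groups described further on. They were the antiviral genes Rsad2 (-4.53 ± 0.25), Ifi27l2b (-4.44 ± 0.24) and Mx2 (-3.75 ± 0.21), the early-response genes Fosl1 (-3.97 ± 0.18) and Egr1 (-3.75 ± 0.11), the stress gene Chac1 (-3.77 ± 0.13), the histone gene Hist1h2bq (-4.03 ± 0.11), the kinase gene Map2k6 (-3.72 ± 0.17) and Dsel (-3.70 ± 0.18).

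**Figure D2:**
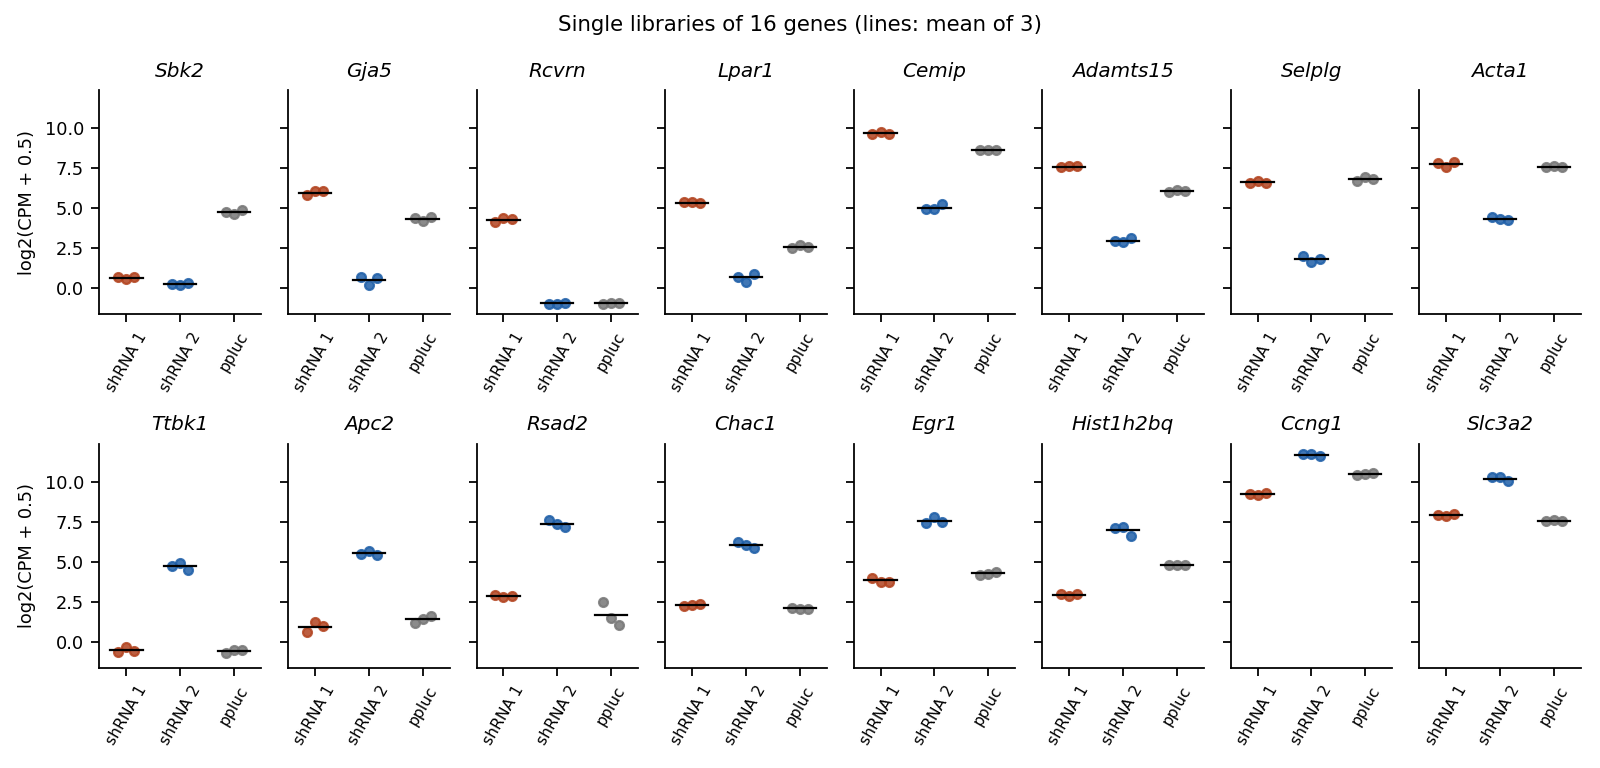
Levels of 16 genes in single libraries (points, log2 of CPM + 0.5) with shRNA 1 (red), shRNA 2 (blue) and ppluc (grey), with the mean of 3 as a line. The libraries of the hairpins do not overlap for any of the genes shown, and for Gja5, Lpar1, Cemip, Adamts15, Egr1, Hist1h2bq and Ccng1 the ppluc libraries lie between those of the hairpins.

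For several genes the hairpins lay on opposite sides of the control vector, each difference from ppluc having passed the test. Hist1h2bq, a histone H2B gene, had 7.34, 6.89 and 7.27 CPM with shRNA 1, 140, 144 and 96.9 CPM with shRNA 2 and 27.8, 27.0 and 27.1 CPM with ppluc (-1.86 and 2.17 against ppluc). No source used here says how reads shared among histone genes were assigned. Cox6a2, the muscle form of a cytochrome c oxidase subunit, had 1.23, 0.729 and 0.793 CPM with shRNA 1, 21.5, 19.6 and 11.8 CPM with shRNA 2 and 4.59, 3.36 and 3.97 CPM with ppluc (-3.65 ± 0.19 between the hairpins). Rd3, a gene known from photoreceptors, followed at -3.56 ± 0.19. In the other direction, Slc9a3 had 32.7, 30.4 and 32.3 CPM with shRNA 1, 0.980, 1.24 and 2.19 CPM with shRNA 2 and 8.63, 9.14 and 8.90 CPM with ppluc. Gja5, Lpar1 and Adamts15 were also among the genes with the largest such opposition.

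One rise with shRNA 1 was shared by a stretch of chromosome 10. Rcvrn (ENSRNOG00000003633, from 54246250 to 54253996), the gene of recoverin, a calcium sensor of photoreceptors, had 694, 672 and 598 reads with shRNA 1 (17.1, 20.4 and 19.8 CPM), against 0, 0 and 1 read with shRNA 2 and 0, 1 and 1 with ppluc. Pooled over libraries, its rate was 1884 times that with shRNA 2 (95% counting interval 338 to 74468), and the fitted difference was 5.26 ± 0.14 (limma adjusted p = 3e-16). Of the 5 other tested genes that begin within 250 kb of it, 5 were called at least 2-fold higher with shRNA 1. Gas7, a growth arrest gene first described in neurons, had 71.8, 85.7 and 79.0 CPM with shRNA 1, 7.76, 7.28 and 9.38 CPM with shRNA 2 and 6.78, 7.68 and 6.50 CPM with ppluc (3.20 ± 0.10). Glp2r, the receptor gene for glucagon-like peptide 2, stood at 4.58, 4.19 and 4.26 CPM with shRNA 1 and at 0.109, 0.0310 and 0.131 CPM with shRNA 2 (3.04 ± 0.19).

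Some of these neighbours were also low with shRNA 2. Dhrs7c (18.1, 19.7 and 18.9 CPM with shRNA 1, 0.844, 0.341 and 0.653 CPM with shRNA 2) and Usp43 (1.85 ± 0.10) were also lower with shRNA 2 than with ppluc, by 3.04 and 1.28. The larger part of their difference lay there, as shRNA 1 stood above ppluc by only 1.11 and 0.57. Cfap52, a cilium gene, had 8.84, 10.8 and 10.9 CPM with shRNA 1, 1.69, 1.73 and 1.24 CPM with shRNA 2 and 0.926, 0.899 and 0.835 CPM with ppluc (2.38 ± 0.14). Stx8, 267 kb from Rcvrn, differed by 0.58 ± 0.09. Gas7, Glp2r, Usp43, Cfap52 and Stx8 were chosen after their values were seen. Around the other 29 of the 30 genes with the largest differences, no gene but Dhrs7c, from the same stretch, had as many as 5 neighbours of this kind. Many of these genes had fewer than 5 tested neighbours, however, and could not reach that count. Lpar1, Kif5c and Dsel had 0 tested neighbours, and Rsad2, Mx2 and Map2k6 had 1 of 1 of this kind. Ttbk1 had 4 of 13 and Padi2 0 of 10.

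**Figure D3:**
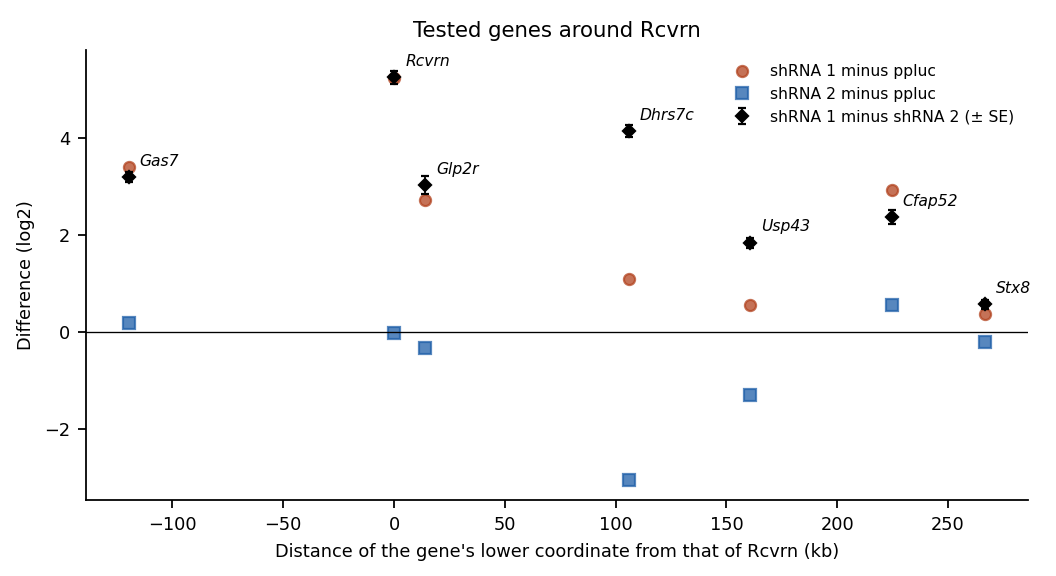
Differences (log2) of the 7 tested genes around Rcvrn by the distance of their lower coordinate from that of Rcvrn (kb). Black diamonds give shRNA 1 minus shRNA 2 with its standard error, red circles shRNA 1 minus ppluc and blue squares shRNA 2 minus ppluc. Gas7, Rcvrn, Glp2r and Cfap52 stand high with shRNA 1 against both other groups, while Dhrs7c and Usp43 are also below 0 with shRNA 2.

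Genes of the contractile apparatus were higher with shRNA 1 than with shRNA 2. Of 35 sarcomere genes tested 30 were called higher, against 27.7% of all genes, and 4 lower, 23 of them by 2-fold or more higher, with a median of 1.25 (30 higher and 2 lower after trimmed-mean scaling). Acta1, skeletal alpha-actin, had 225, 192 and 237 CPM with shRNA 1, 21.0, 19.4 and 18.6 CPM with shRNA 2 and 192, 197 and 188 CPM with ppluc (3.44 ± 0.06 between the hairpins, limma adjusted p = 5e-18). Synpo2l, a Z-disc gene, differed by 3.34 ± 0.09, Myoz2, the calcineurin binder of the Z-disc, by 3.13 ± 0.09 and Tnnc1, cardiac troponin C, by 2.29 ± 0.05. Both hairpins lay below ppluc in the median of the list, by 0.46 with shRNA 1 and 1.81 with shRNA 2. Against ppluc 6 members were called higher and 23 lower with shRNA 1 (54.7% and 18.7% of all genes), and 2 higher and 32 lower with shRNA 2 (65% and 21.1%). Both contrasts share the ppluc libraries. In bulk RNA, fewer cells of a type and less of a transcript per cell cannot be told apart.

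Myh6, the alpha cardiac myosin heavy chain and the main one of rat atria, had 3223, 3174 and 2914 CPM with shRNA 1 and 1026, 694 and 835 CPM with shRNA 2. Its average with ppluc was 15060 CPM. Its difference between the hairpins was 1.88 ± 0.13, and both were far under ppluc. The assignment of reads shared by near-identical myosin or actin genes is likewise not stated. Of 22 genes of the actin cytoskeleton and of serum response factor targets 13 were called higher and 5 lower, with a median of 0.47 (16 and 3 after scaling), among them Cnn1, calponin 1 (1.68 ± 0.11), Cnn2 (1.56 ± 0.06), Zyx, zyxin (1.07 ± 0.07), and Srf itself (0.98 ± 0.06).

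Genes of electrical function and atrial identity showed the same direction. Of 17 ion channel genes 11 were called higher and 4 lower (median 0.83; 14 and 3 after scaling). Hcn4, the main pacemaker channel gene, had 77.6, 90.9 and 79.4 CPM with shRNA 1, 11.2, 8.89 and 10.7 CPM with shRNA 2 and 296, 303 and 311 CPM with ppluc (2.95 ± 0.07 between the hairpins, limma adjusted p = 2.1e-16). Both subunits of the ATP-sensitive potassium channel were higher, Kcnj11 by 1.47 ± 0.07 and Abcc8 by 1.5 ± 0.07, while the chloride transporter gene Clcn3 was lower (-1.23 ± 0.06). Of 18 atrial genes 14 were called higher and none lower (median 0.77; 17 and 0 after scaling). Corin, the protease that activates atrial natriuretic peptide, had 106, 99.5 and 104 CPM with shRNA 1, 36.6, 29.3 and 34.1 CPM with shRNA 2 and 286, 292 and 281 CPM with ppluc (1.62 ± 0.06), and Stard10, a lipid transfer protein gene, differed by 1.53 ± 0.07.

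Of 19 connexin and junction genes 13 were called higher and 3 lower (median 0.69; 16 and 2 after scaling). Beside Gja5, Xirp1, an actin-binding gene of intercalated discs, had 233, 249 and 223 CPM with shRNA 1 and 31.6, 29.3 and 38.4 CPM with shRNA 2 (2.82 ± 0.07), and the desmosomal cadherin genes Dsg2 (1.36 ± 0.06) and Dsc2 (1.00 ± 0.06) were higher as well. Cardiac transcription factors were called higher in 13 of 19 cases and lower in 5 (median 0.43; 14 and 4 after scaling), with Mef2d at 1.54 ± 0.07, Smyd1 at 1.35 ± 0.06, Tbx20 at 1.20 ± 0.05 and Mef2a at 1.19 ± 0.04. Calcium handling genes split, with 12 higher and 8 lower of 24 (median 0.13; 15 and 6 after scaling). There, the T-type channel gene Cacna1g (2.10 ± 0.10) and Casq2, the calcium store protein of the sarcoplasmic reticulum (1.4 ± 0.06), were higher, and Atp2b1, a calcium pump of the cell membrane (-2.18 ± 0.10), and Cacna1c, the L-type channel (-1.18 ± 0.06), were lower.

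Matrix genes were higher with shRNA 1 in 23 of 30 cases and lower in 4 (median 0.55; 24 and 2 after scaling). Nid1, the basement membrane linker nidogen 1, had 23.0, 24.5 and 22.8 CPM with shRNA 1, 1.85, 1.70 and 1.37 CPM with shRNA 2 and 30.2, 33.9 and 35.6 CPM with ppluc (3.49 ± 0.10). Col11a1 differed by 2.31 ± 0.08, Col6a2 by 1.48 ± 0.06 and the laminin gene Lamb1 by 1.14 ± 0.04. Among proteases and fibrinolysis genes, 6 of 10 were called higher and 3 lower (median 0.35, the same counts after scaling). Adamts5 (1.91 ± 0.08) and Adamts9 (1.36 ± 0.06), proteases of matrix proteoglycans, were higher. Plat, tissue plasminogen activator, which starts fibrinolysis, was lower, with 17.5, 19.5 and 18.1 CPM with shRNA 1, 69.7, 70.0 and 68.7 CPM with shRNA 2 and 3.24, 3.49 and 4.07 CPM with ppluc (-1.89 ± 0.09).

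The lists around Cemip and Lpar1 did not move with them as a whole. Of 9 hyaluronan genes 3 were called higher and 5 lower (4 and 3 after scaling), with Hapln3, a link protein gene, at 1.03 ± 0.10 and Hyal1, a hyaluronidase, at -1.55 ± 0.11. Of 10 genes listed around lysophosphatidic acid 3 were higher and 4 lower (4 and 1 after scaling). The 3 higher ones were all receptor genes, Lpar1, Lpar3 at 0.63 ± 0.06 and Lpar6 at 0.88 ± 0.16. The lower ones included Lipa (-0.81 ± 0.06), a lysosomal lipase gene that is not particular to lysophosphatidic acid. Likewise, Wnt pathway genes around Apc2 split 10 higher and 11 lower of 23 (12 and 6 after scaling), with Fzd1, a receptor, at 1.67 ± 0.07, the Wnt binder Sfrp1 at 1.45 ± 0.08 and the kinase gene Gsk3b at -1.13 ± 0.05. YAP and TGF-beta targets were higher in 18 and lower in 6 of 25 cases (median 0.46; 19 and 4 after scaling). Bmp2, a bone morphogenetic protein, was above ppluc with shRNA 1, with 79.9, 86.2 and 78.1 CPM under shRNA 1, 9.26, 6.97 and 11.8 CPM under shRNA 2 and 14.4, 13.2 and 13.4 CPM under ppluc (3.09 ± 0.13 between the hairpins, -0.56 between shRNA 2 and ppluc).

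Targets of Nrf2, the transcription factor of the antioxidant response, were higher with shRNA 1 in 12 of 18 cases and lower in 2 (median 0.55; 15 and 1 after scaling). Gclc, the catalytic subunit that limits glutathione synthesis, had 184, 194 and 183 CPM with shRNA 1, 56.0, 57 and 62.4 CPM with shRNA 2 and 62.5, 57.2 and 64.3 CPM with ppluc (1.67 ± 0.06). Gsta4 (2.11 ± 0.09), Gstm1 (1.99 ± 0.09) and Txnrd1, thioredoxin reductase (1.04 ± 0.05), were also higher. Against ppluc the median of the list was 1.10 with shRNA 1 (14 higher, 2 lower) and 0.04 with shRNA 2 (9 higher, 7 lower), beside medians over all genes of 0.26 and 0.50.

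**Figure D4:**
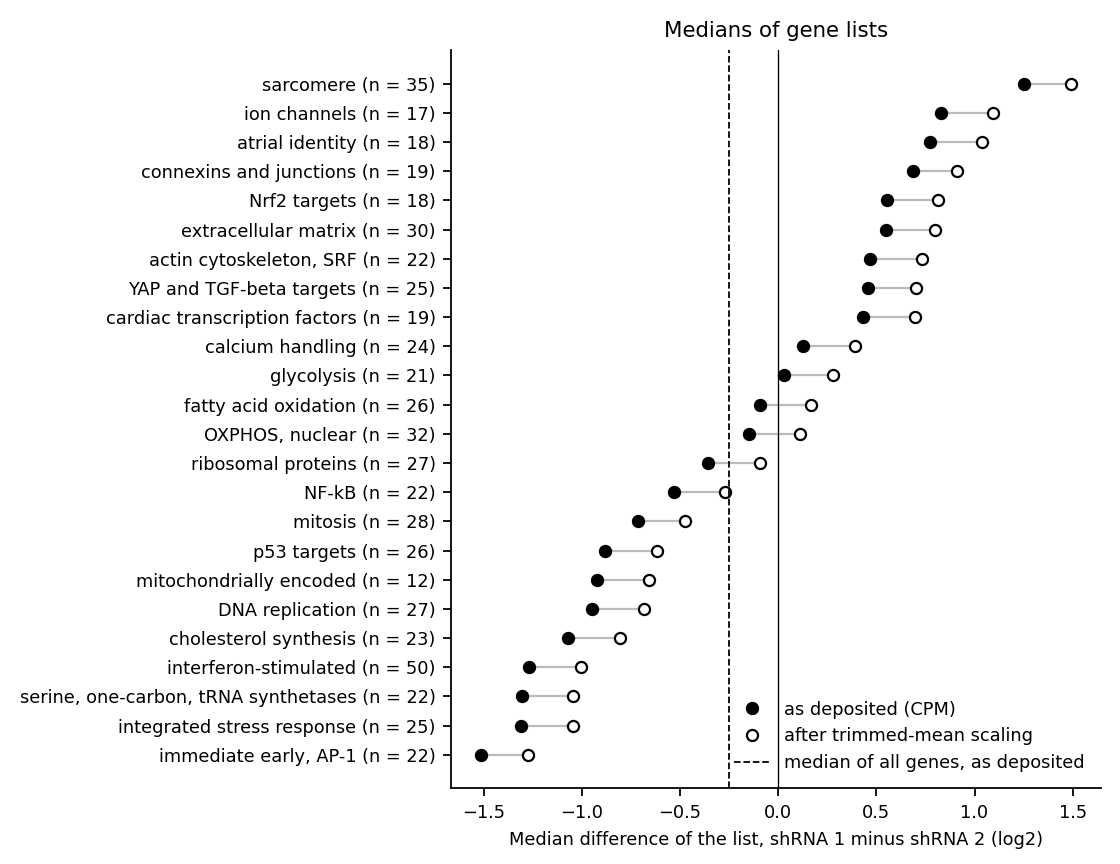
Median difference of 24 gene lists, shRNA 1 minus shRNA 2 (log2), as deposited in CPM (filled) and after trimmed-mean scaling (open), with the number of tested members. The dashed line marks the median of all genes, -0.25. Lists of muscle and matrix genes lie to the right, up to 1.25 for sarcomere genes, and lists of interferon, stress and early-response genes to the left, down to -1.52.

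Interferon-stimulated genes were lower with shRNA 1 than with shRNA 2. Of 50 tested 44 were called lower, against 53.3% of all genes, and 3 higher, with 33 lower by 2-fold or more and a median of -1.27 (41 lower and 6 higher after scaling, median -1.01). Rsad2 (ENSRNOG00000007539, chromosome 6 from 45655954 to 45669148), the gene of the antiviral enzyme viperin, had 7.04, 6.34 and 6.77 CPM with shRNA 1, 198, 165 and 142 CPM with shRNA 2 and 5.20, 2.31 and 1.57 CPM with ppluc (limma adjusted p = 7.1e-12). Gbp5, a guanylate-binding protein gene, had 25, 24.6 and 24.8 CPM with shRNA 1, 206, 195 and 188 CPM with shRNA 2 and 20.4, 20.5 and 21.1 CPM with ppluc (-2.96 ± 0.05). In both genes the shRNA 2 libraries lay far above those of the other groups. Cxcl10, a chemokine (-3.16 ± 0.11), Gbp2 (-2.43 ± 0.06) and Mx2 were lower too. Against ppluc the median of the list was 0.30 with shRNA 1 (27 higher, 5 lower) and 1.48 with shRNA 2 (48 higher, 1 lower). Over all genes the medians against ppluc were 0.26 with shRNA 1 and 0.50 with shRNA 2, and 54.7% and 65% were called higher, so that the list was at the level of all genes with shRNA 1.

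The promoters of these genes are known for the interferon-stimulated response element, and it was searched as GAAA, any 2 bases and GAAA again, on both strands in RefSeq windows of 300 bases (250 before and 50 after the start, GRCr8). Of 42 tested members with a window in the RefSeq table, 28 held it (66.7%), against 3.92% of all 33469 windows. Among members that differed by 2-fold or more between the hairpins, 19 of 28 held it, a share near that of the whole list. The 250 bases before the start of Rsad2 and Ifit3 are shown, with the match in capitals, to let the motif be seen in place. Ifit3, an interferon-induced gene chosen here after its values were seen, had 0.640, 0.304 and 0.661 CPM with shRNA 1, 13.5, 10.9 and 11.1 CPM with shRNA 2 and 0.105, 0.437 and 0.104 CPM with ppluc (-3.59 ± 0.19). In Rsad2 the match ends 137 bases before the start, and in Ifit3 it ends 34 bases before it. A match is a description of the letters and not of binding.
Rsad2 (chr6:48788121-48788370, minus strand): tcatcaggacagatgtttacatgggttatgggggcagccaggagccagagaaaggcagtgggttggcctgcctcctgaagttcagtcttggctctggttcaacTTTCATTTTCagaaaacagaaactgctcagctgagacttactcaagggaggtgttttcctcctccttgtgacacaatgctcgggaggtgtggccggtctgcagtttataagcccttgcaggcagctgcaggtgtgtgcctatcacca
Ifit3 (chr1:241527076-241527325, plus strand): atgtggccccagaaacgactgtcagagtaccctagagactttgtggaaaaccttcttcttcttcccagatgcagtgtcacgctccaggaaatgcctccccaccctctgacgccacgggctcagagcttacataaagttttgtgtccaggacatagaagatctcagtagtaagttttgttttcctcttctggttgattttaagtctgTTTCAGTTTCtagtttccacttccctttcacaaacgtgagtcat

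Genes that sense foreign RNA were less uniform. Of 16 tested 2 were called higher and 10 lower (5 and 6 after scaling), with a median of -0.31 near that of all genes. Ifih1, the double-stranded RNA sensor MDA5, had 33.8, 37.6 and 36.7 CPM with shRNA 1, 106, 98.6 and 101 CPM with shRNA 2 and 48.7, 38.3 and 44.8 CPM with ppluc (-1.49 ± 0.07), and Irf7, a factor that drives interferon genes, differed by -1.76 ± 0.10. Ifnar2, a subunit of the interferon receptor, was higher with shRNA 1 (1.03 ± 0.06). Of 17 genes of the RNA interference machinery 4 were called higher and 10 lower (6 and 7 after scaling; median -0.37). This was near the shares of all genes, 27.7% higher and 53.3% lower (38.9% and 38.8% after scaling). Dicer1, which cuts hairpins, had 56.9, 59.4 and 56.6 CPM with shRNA 1, 169, 173 and 149 CPM with shRNA 2 and 115, 114 and 115 CPM with ppluc (-1.5 ± 0.06). It was below ppluc with shRNA 1 (-0.99). With shRNA 2 it stood 0.51 above ppluc, near the median of all genes, 0.50. Ago2, the slicing Argonaute, differed by -0.63 ± 0.06, and Tnrc6b, its silencing partner, by 0.62 ± 0.05.

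Genes of the integrated stress response, in which the factor Atf4 turns on genes of amino acid supply, were lower with shRNA 1 in 19 of 25 cases and higher in 4 (median -1.31, the same counts after scaling). Chac1, a glutathione-degrading enzyme and a classical Atf4 target, had 4.28, 4.31 and 4.59 CPM with shRNA 1, 76.3, 65.5 and 58.4 CPM with shRNA 2 and 3.87, 3.70 and 3.65 CPM with ppluc (limma adjusted p = 1.2e-14). Trib3, a feedback inhibitor of the response, had 7.26, 7.01 and 9.05 CPM with shRNA 1, 121, 105 and 93.2 CPM with shRNA 2 and 8.54, 7.75 and 6.99 CPM with ppluc (-3.69 ± 0.12). Neither gene passed the test between shRNA 1 and ppluc, while shRNA 2 stood above ppluc by 3.98 for Chac1 and 3.69 for Trib3. The amino acid transporter subunit Slc3a2 stood at 241, 236 and 251 CPM with shRNA 1 and at 1250, 1266 and 1058 CPM with shRNA 2 (-2.29 ± 0.06), and Ddit4, an inhibitor of mTORC1, at -1.97 ± 0.06.

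Serine and one-carbon enzymes and tRNA synthetases, many of them Atf4 targets, were lower in 21 of 22 cases and higher in none (20 and 1 after scaling; median -1.31). Mthfd2, a mitochondrial folate enzyme, had 11.3, 11.4 and 11.5 CPM with shRNA 1, 100.1, 95.1 and 81.9 CPM with shRNA 2 and 24.3, 25.1 and 25.3 CPM with ppluc (-2.96 ± 0.11), so that shRNA 1 lay under ppluc (-1.10) and shRNA 2 over it (1.86). Shmt2 (-2.35 ± 0.08), the tryptophanyl-tRNA synthetase gene Wars (-2.26 ± 0.06) and Phgdh, the first enzyme of serine synthesis (-2.15 ± 0.07), were lower as well. The motif bound by Atf4 with C/EBP factors was searched as TGATGNAA on both strands. It was in the windows of 4 of 21 integrated stress response genes (19%) and of 8 of 19 genes of the serine and tRNA synthetase list (42.1%), against 3.98% of all windows. Among members that differed by 2-fold or more, 2 of 11 and 3 of 14 held it, so the motif was not more frequent in the larger differences of the second list. Chac1 and Trib3 are shown because both differed strongly, with the match in capitals.
Chac1 (chr3:126795881-126796130, plus strand): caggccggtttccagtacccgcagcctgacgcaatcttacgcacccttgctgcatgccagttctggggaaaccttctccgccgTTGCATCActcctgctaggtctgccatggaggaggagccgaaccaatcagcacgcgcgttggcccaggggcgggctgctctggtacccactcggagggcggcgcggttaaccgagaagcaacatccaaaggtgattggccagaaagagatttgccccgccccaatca
Trib3 (chr3:161275534-161275783, minus strand): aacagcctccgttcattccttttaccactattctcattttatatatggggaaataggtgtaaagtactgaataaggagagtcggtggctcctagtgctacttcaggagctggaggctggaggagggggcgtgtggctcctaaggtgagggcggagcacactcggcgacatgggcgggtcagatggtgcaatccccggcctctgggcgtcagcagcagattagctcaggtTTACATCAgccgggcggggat

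Genes of the unfolded protein response did not follow as a group, with 6 called higher and 11 lower of 22 (11 and 10 after scaling). Hspa5, the chaperone BiP, was lower with shRNA 1, at 517, 512 and 538 CPM against 1331, 1354 and 1183 CPM with shRNA 2 (-1.30 ± 0.05), as was Sel1l (-1.72 ± 0.05). Atf6, a sensor of the same response (1.52 ± 0.04), and Pdia3, a disulfide isomerase (1.03 ± 0.05), were higher. Heat shock genes split 8 higher and 10 lower of 19 (9 and 10 after scaling), with the small heat shock genes Hspb7 (1.59 ± 0.05) and Cryab (1.25 ± 0.05) and the co-chaperone Bag3 (1.31 ± 0.06) higher and Hsph1 lower (-1.18 ± 0.05).

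**Figure D5:**
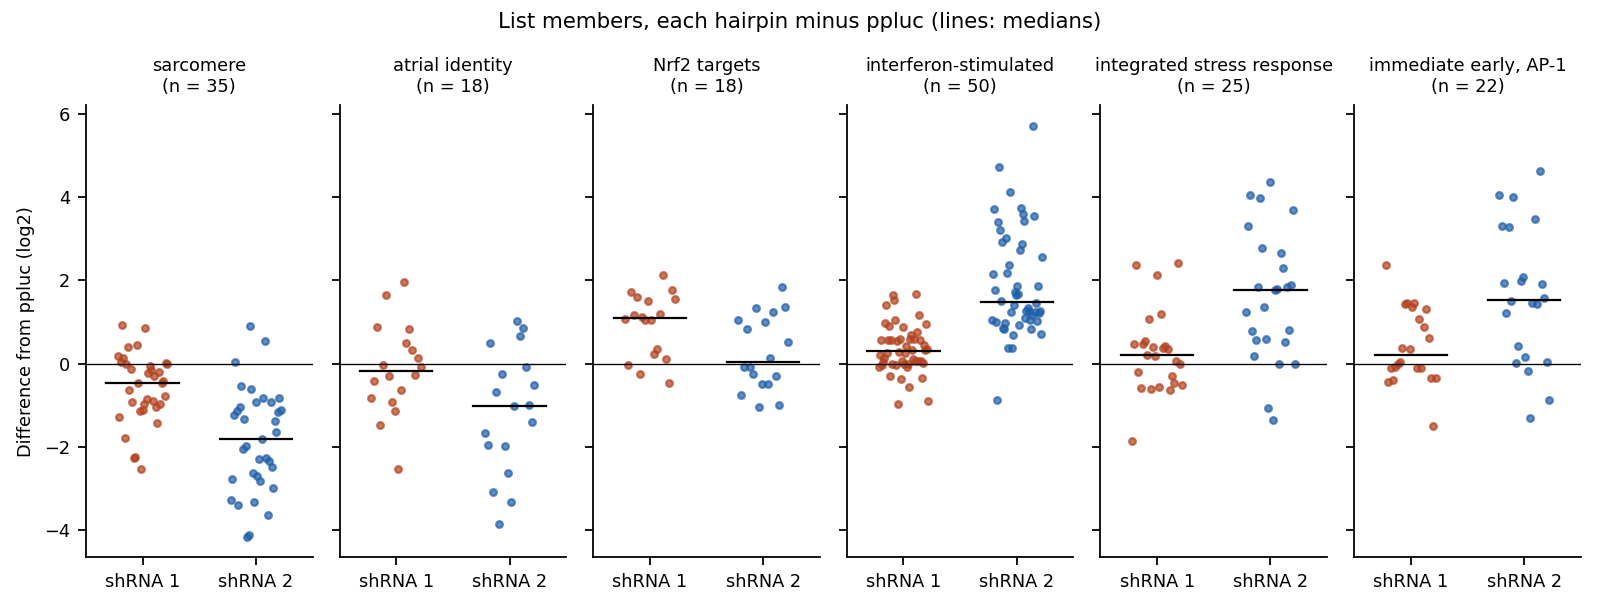
Differences from ppluc (log2) of the tested members of 6 gene lists, with shRNA 1 (red, left) and shRNA 2 (blue, right), each point a gene and each line the median. Medians of interferon-stimulated genes are 0.30 with shRNA 1 and 1.48 with shRNA 2, of integrated stress response genes 0.21 and 1.77, and of sarcomere genes -0.46 and -1.81. Medians of all genes are 0.26 with shRNA 1 and 0.50 with shRNA 2, and both hairpins are set against the same ppluc libraries.

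Immediate early genes, switched on within minutes of growth signals or stress, were lower with shRNA 1 in 16 of 22 cases and higher in 6 (median -1.52; 15 and 6 after scaling). Egr1 had 15.1, 13.1 and 13.0 CPM with shRNA 1, 170, 222 and 182 CPM with shRNA 2 and 17.8, 18.6 and 20.3 CPM with ppluc (limma adjusted p = 1.2e-15). Fos, an AP-1 subunit, had 3.13, 3.55 and 3.24 CPM with shRNA 1, 35.5, 40.6 and 39.4 CPM with shRNA 2 and 3.26, 3.62 and 3.68 CPM with ppluc (-3.36 ± 0.11). Maff differed by -3.58 ± 0.15 and Junb by -1.72 ± 0.08. Of 22 genes that ERK signalling induces and that feed back on it, 5 were higher and 9 lower (7 and 9 after scaling), with Etv4 at -3.0 ± 0.15, Etv5 at -2.34 ± 0.10 and the inhibitor Spry4 at -1.95 ± 0.10.

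The serum response element, or CArG box, that regulates both early genes and muscle actins was in the promoter windows of 4 of 14 immediate early genes (28.6%) and of 5 of 28 sarcomere genes (17.9%), against 1.64% of all windows. The AP-1 site TGANTCA was in 0 of those 14 windows and in 7.33% of all. The 14 and 28 genes are those with a window in the table. Acta1 is shown, whose promoter is a classical example of the box, with the match in capitals ending 84 bases before the start.
Acta1 (chr19:68784195-68784444, minus strand): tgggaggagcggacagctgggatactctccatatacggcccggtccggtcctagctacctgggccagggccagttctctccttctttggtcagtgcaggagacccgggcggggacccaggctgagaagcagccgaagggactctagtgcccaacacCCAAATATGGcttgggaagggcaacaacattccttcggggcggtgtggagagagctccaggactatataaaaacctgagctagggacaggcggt

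Targets of p53 were lower with shRNA 1 in 20 of 26 cases and higher in 1 (median -0.88; 19 and 3 after scaling). Ccng1, cyclin G1, had 619, 593 and 636 CPM with shRNA 1, 3462, 3443 and 3178 CPM with shRNA 2 and 1402, 1445 and 1521 CPM with ppluc (-2.45 ± 0.06, limma adjusted p = 1.5e-16), below ppluc with shRNA 1 and above it with shRNA 2. Plk2, a polo-like kinase (-1.90 ± 0.05), and Zmat3 (-1.68 ± 0.06) were lower than with shRNA 2 but higher than with ppluc, by 1.54 and 0.52. DNA replication genes were lower in 21 of 27 cases and higher in 3 (median -0.95; 18 and 5 after scaling), with Cdc45, a helicase component, at 0.689, 0.668 and 0.562 CPM with shRNA 1 and 10.5, 11.6 and 7.35 CPM with shRNA 2 (-3.16 ± 0.17) and Mcm3 at -2.20 ± 0.08. Mitosis genes were lower in 19 of 28 cases and higher in 3 (median -0.71; 17 and 3 after scaling), with Mad2l1 at -1.33 ± 0.11 and Kif23 at -1.16 ± 0.11. The LT-tsA58 transcript, whose product acts on p53 and on the cell cycle, moved the same way (-1.04), and its part in these differences was not tested.

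Cholesterol synthesis genes were lower with shRNA 1 in 20 of 23 cases and higher in 2 (median -1.07; 16 and 3 after scaling). Lss, lanosterol synthase, had 15.1, 15.4 and 15.2 CPM with shRNA 1, 63.8, 62.3 and 60.9 CPM with shRNA 2 and 24.6, 25.5 and 26.7 CPM with ppluc (-2.0 ± 0.06). Msmo1 (-1.21 ± 0.05) and Sqle, squalene epoxidase (-1.16 ± 0.06), were lower too, although both lay above ppluc with either hairpin. NF-kB and inflammation genes, with 13 of 22 lower and 6 higher (12 and 7 after scaling), were near the shares of all genes, 53.3% and 27.7%. Among them were Relb at -2.19 ± 0.08 and Nfkb2 at -1.20 ± 0.06 and the adhesion molecule gene Vcam1 at 2.14 ± 0.08. Cell death genes, with 13 of 22 lower and 5 higher (11 and 8 after scaling), were near those shares as well. Among them were the inflammatory caspase gene Casp4 at 3.86, 3.55 and 3.57 CPM with shRNA 1 and 54.3, 52.8 and 43.1 CPM with shRNA 2 (-3.60 ± 0.12), and Bmf, a promoter of cell death, at 1.45 ± 0.07.

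In energy metabolism, the mitochondrially encoded transcripts were the most uniform, with 10 of 12 lower with shRNA 1 and none higher (median -0.92; 8 and 1 after scaling). Mt-co2 had 167, 156 and 148 CPM with shRNA 1, 617, 689 and 502 CPM with shRNA 2 and 546, 382 and 500.2 CPM with ppluc (-1.93 ± 0.12). Against ppluc the median of the list was -0.98 with shRNA 1 (0 higher, 11 lower) and -0.17 with shRNA 2 (2 higher, 6 lower), both below the medians of all genes, 0.26 and 0.50. Counts of nuclear oxidative phosphorylation genes changed direction with the scaling, with 5 higher and 15 lower of 32 as deposited and 12 and 8 after scaling. Shares of all genes shifted too, from 27.7% higher and 53.3% lower to 38.9% and 38.8%. The list medians, -0.15 as deposited and 0.11 after scaling, lay above those of all genes, -0.25 and -0.002, both times. Counts of fatty acid oxidation genes did so too (11 and 12 of 26, then 14 and 9), with medians of -0.09 and 0.17, likewise above those of all genes. Ribosomal protein genes were more often lower under both scalings, with 2 higher and 18 lower of 27 as deposited and 8 and 11 after scaling, where the median of -0.09 was near that of all genes. Glycolysis genes split, 8 higher and 9 lower of 21 (12 and 8 after scaling), with the muscle enolase Eno3 at 65.4, 62.6 and 57.6 CPM with shRNA 1 and 19.0, 16.6 and 18.5 CPM with shRNA 2 (1.75 ± 0.06), while the widely expressed Eno1 (-1.24 ± 0.05) and Pkm (-1.13 ± 0.05) were lower.

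Of 23 genes of protein degradation and autophagy 11 were higher and 6 lower (16 and 2 after scaling), with the lysosomal protease Ctsd at 2.12 ± 0.05, the muscle ring finger gene Trim54 at 1.75 ± 0.06 and the lysosomal membrane gene Lamp1 at -1.5 ± 0.05. Of 18 small GTPase genes 8 were higher and 7 lower (9 and 6 after scaling), with Rasd1, a steroid-induced Ras relative, at 88.4, 77.7 and 83.4 CPM with shRNA 1, 8.60, 6.66 and 9.11 CPM with shRNA 2 and 200, 201 and 203 CPM with ppluc (3.29 ± 0.08), Rac3 at 1.63 ± 0.11, Rhoa at 0.90 ± 0.05 and Cdc42 at -1.27 ± 0.06.

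Markers of other cell types were mostly absent. Of 8 fibroblast markers 7 were under 0.5 CPM in both hairpin groups, Dcn, Lum, Mfap5 and Tcf21 were at 0, and their summed level, nearly all of it Col1a1, was 24.6 to 28.7 CPM with shRNA 1 and 14.6 to 20.3 CPM with shRNA 2, with 115 to 149 CPM in ppluc. Of 7 measured endothelial markers 5 were under 0.5 CPM, Cdh5, Emcn and Erg were at 0, and the sum of 209 to 225 CPM with shRNA 1 and 56.4 to 97.8 CPM with shRNA 2 was nearly all Kdr, a receptor for VEGF (1.49 ± 0.13). Macrophage markers summed to at most 0.892 CPM and lymphocyte markers to at most 0.0929 CPM, with Ptprc, Tyrobp and Cd3e at 0. Of 6 epicardial and mesothelial markers 5 were tested, 4 of them higher with shRNA 1 and 1 lower. Among the higher ones, Upk3b had 40.9, 38.0 and 37.1 CPM with shRNA 1 and 4.82, 5.08 and 7.06 CPM with shRNA 2 (2.69 ± 0.11), with Aldh1a2 at 1.93 ± 0.08 and Tbx18 at 0.59 ± 0.06. The lower one, Lrrn4, had 0.246, 0.789 and 0.396 CPM with shRNA 1 and 2.18, 2.70 and 3.50 CPM with shRNA 2 (-1.77 ± 0.19). Of 7 smooth muscle and pericyte markers 4 were tested, with Notch3 (-2.69 ± 0.12) and Myh11 (-2.84 ± 0.15) lower and Cnn1 and Acta2 higher. Acta2, smooth muscle actin, made up most of their sum, with 3284, 2784 and 3267 CPM with shRNA 1, 2150, 2140 and 2847 CPM with shRNA 2 and 6764, 7231 and 6658 CPM with ppluc (0.40 ± 0.11, limma adjusted p = 0.004), and its hairpin libraries overlapped. The summed cardiomyocyte markers ran from 30481 to 33746 CPM with shRNA 1, from 17151 to 22139 CPM with shRNA 2 and from 58311 to 67608 CPM with ppluc, and 6 of the 8 measured were called higher with shRNA 1. These sums include Nppa, whose library values in the hairpin groups could not be recovered uniquely, so the ranges are approximate. The part of cell composition in the differences between the hairpins was not tested.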

How the data were processed

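Members and gene lists were chosen with earlier results of these data known. Polyadenylated RNA with an integrity number of 10 was sequenced from stranded libraries as paired 150-bp reads, per the labels. The deposited CPM values and the deposited TPM values, which the authors also scaled by length, are averages over the 3 libraries of a group, and the columns carry no replicate numbers. The submitters' processing notes name Rnor_6.0 and DESeq2, while aligner and counting tool are not stated. Positions come from the deposited locus column, with 1 added to starts.

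Single libraries were recovered from the CPM averages. An average is the sum of 3 library values divided by 3, each a whole read number over a library total, and it keeps 15 significant digits. The 3 most frequent values above 0, each 1 read in 1 library, gave the totals. Whole-read triples returning the stored average were then searched. One triple remained in 99.87 to 99.98% of features, of which 25 to 45 per group were picked by the spread of their libraries. At most 1 of 3000 shifted control values per group had a triple. In simulated libraries, 100.0% of the triples left alone were correct. In the hairpin groups, Nppa, Clu, Lama5, App, Cdkn1a, Fn1 and Mt-co1 kept several triples. No library value of these genes is printed by itself, but the sums of cardiomyocyte markers include Nppa. With ppluc 41 features kept several triples, at most 218. Where several were left, the triple with the widest spread within the limit was used, so library values of such features are uncertain. The group averages are not affected. Libraries are ordered by falling total. The floor of 3 reads is 0.0739 to 0.0991 CPM in hairpin libraries, and counting intervals cover counting error only.

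A gene was tested when 3 or more of the 12 libraries reached 0.5 CPM. limma 3.58.1 (R 4.3.3) was run on log2(CPM + 0.5) with a mean per group and a trended prior, and calls needed a Benjamini-Hochberg adjusted p under 0.05. The fit was tested on simulated data for shRNA 1 against shRNA 2 (12444 genes), with a dispersion of 0.02 and 200 changed genes. It recovered 100% of log2 changes of 2, 98.5% of changes of 1 and 26.9% of changes of 0.5, with 5 false calls. Far more genes differed in the real libraries, and their spread was not matched, so these shares need not hold there. Named genes were the Sbk genes, Gja5, Cemip, Lpar1, Apc2, the vector features, the 15 largest rises and falls with hairpin libraries apart and 1 CPM or more in the higher group, up to 4 called members per list with the smallest p, and the 8 genes most opposed around ppluc; some of these are not reported here. Promoters are RefSeq's for GRCr8. Alternatives were other scalings, pseudocounts, filters, voom weights, a fit of the hairpin libraries alone, TPM, and leaving out each hairpin library. Other tools were matplotlib 3.10.9, scipy 1.17.1, pandas 2.3.3 and numpy 2.4.6 under Python 3.11.15.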

Additional observations from a re-analysis of the deposited data

Results flagged for a closer look

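Flagged here are 7 genes for which limma called the hairpins on opposite sides of ppluc. Such genes differ between the hairpins by that choice, so the difference between the hairpins is no further test. With shRNA 1 above and shRNA 2 below ppluc, the difference between the hairpins was 5.49 for Gja5, 4.69 for Lpar1, 4.64 for Adamts15 and 4.08 for Slc9a3. With shRNA 1 below and shRNA 2 above ppluc, it was -4.03 for Hist1h2bq, -3.65 for Cox6a2 and -3.56 for Rd3. These genes were chosen for the size of the opposition, so the sizes are a description.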

How the results depend on the processing

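No paired analysis was possible because the columns carry no replicate numbers. The alternatives that could be fitted kept the counts of genes called within 1.5 times of those as deposited. Of genes called, 34.3% were higher with shRNA 1 as deposited (3466 against 6653 lower). That share was 50% with trimmed-mean scaling (4857 and 4852) and 48.7% with median-of-ratios scaling (4729 and 4975). Leaving out each hairpin library in turn gave 3278 to 3472 higher and 6432 to 6714 lower genes, and 0.39 to 0.46 for Sbk2. Sbk2 passed under every fitted alternative except voom weights (0.67, adjusted p = 0.071), over a range of adjusted p from 4.33e-05 to 0.071. Of 198 named genes 196 kept their call and direction under every fitted alternative. The planned count model on the recovered reads was not run, although the fit with voom weights used those reads. One gene missed its call with a pseudocount of 0.1. With TPM averages, which give no test, 136 named values moved by more than the spread between libraries and none reversed. Depth limits statements on genes near 1 read, such as Rcvrn with shRNA 2 or Ttbk1 with shRNA 1.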
